A study of Mus musculus with 6 samples.

Results

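The ligand genes *Fgf4* and *Fgf5*, the receptor genes *Fgfr1* and *Fgfr2*, the Sprouty genes *Spry1*, *Spry2* and *Spry4*, the phosphatase genes *Dusp4* and *Dusp6* and the transcription factor gene *Etv5* are 10 genes of fibroblast growth factor (FGF) signalling and of the negative feedback on the kinase ERK. Their interactions were taken as all pairs of a promoter fragment named for one of these genes and a distal region, in lists made with HiCap, a Hi-C procedure followed by sequence capture of promoters. A pair was called when both HiCap replicates listed the same promoter fragment with the same distal region. All 10 genes were among the 21202 genes that either replicate listed, and 126 of the 94868 called pairs were theirs. A called pair was found for 7 of the 10 genes, against 60.7% of the listed genes.

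FGF ligands bind receptor tyrosine kinases, which act through the adaptors Frs2 and Grb2 on Ras and on the kinase cascade that ends in ERK. In mouse embryonic stem cells (mESCs), *Fgf4* is the main ligand the cells themselves produce, and ERK activity prepares them to leave self-renewal. Sprouty proteins act against the pathway between receptor and Raf, dual-specificity phosphatases remove phosphate groups from MAP kinases, and genes of both families are typical targets of ERK signalling.

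The mESC line R1 was used throughout, with 2 biological replicates for HiCap and 2 replicates for Hi-C, which share a single pooled list. The cells were grown on gelatin in medium with serum and leukaemia inhibitory factor, and no treatment or genotype was compared. The lists hold 499874 pairs for replicate 1, 554081 for replicate 2 and 74814 for Hi-C, and they give positions on mm9 without read numbers, so the depth behind a single pair is unknown. Fewer pairs were in the replicate 2 list analysed here than the study counted for it, on which each share of pairs found again depends. They hold no expression values, so R1 was not checked against marker genes. A further 2 Capture-C samples were not analysed here.

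The 10 genes had 518 pairs in replicate 1, at 21 promoter fragments of 8 genes. In replicate 2, they had 835 pairs at 20 promoter fragments of all 10 genes. The 126 called pairs joined 17 promoter fragments of 7 genes to 99 distal regions. Replicate 2 held 24.3% of the 518 pairs (95% interval 20.7 to 28.3, exact binomial), and over all listed genes this share was 19.0%. Replicate 1 held 15.1% of the 835 pairs (12.7 to 17.7), and over all listed genes the share was 17.1%. *Fgfr1* made up 64.3% of the called pairs, and without it the shares were 15.4% (11.4 to 20.0) and 18.5% (13.8 to 24.0), so that their order against the background turned in both replicates. These intervals cover counting error only, and pairs that share a fragment are not independent. The median gene of the 10 had 15.5 pairs in replicate 1, 22 in replicate 2 and 5 in both, and the median listed gene had 12, 11 and 1.

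**Figure D1:**
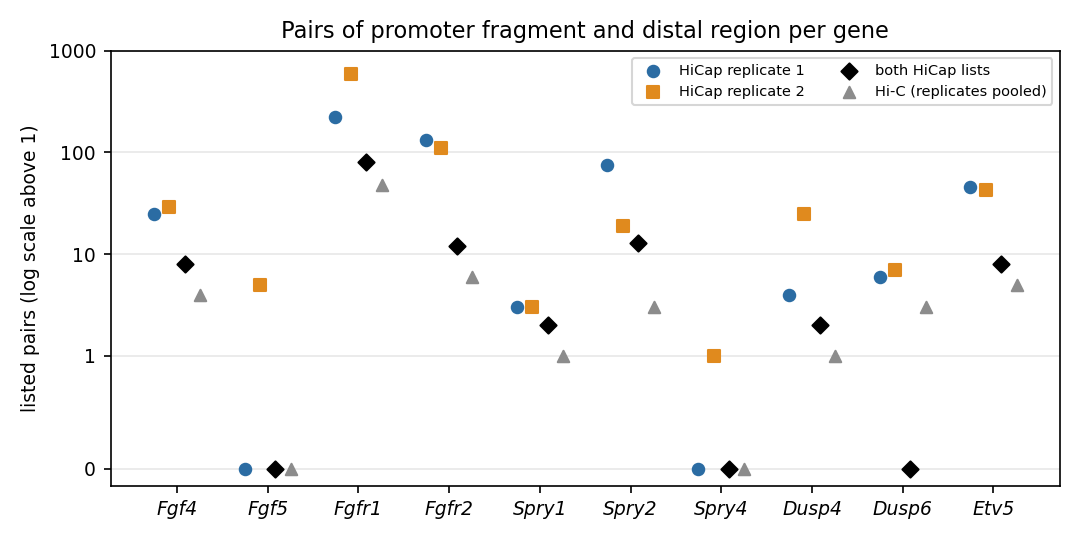
Number of listed pairs for each gene (y axis, log scale above 1) in HiCap replicate 1 (circles), HiCap replicate 2 (squares), both HiCap lists (diamonds) and the pooled Hi-C list (triangles). Fgfr1 was highest in every list, with 225, 592, 81 and 48 pairs, and Fgf5, Spry4 and Dusp6 had 0 pairs in both HiCap lists.

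Of the ligand genes, *Fgf4* had called interactions and *Fgf5* had none. *Fgf4* lies on chromosome 7 at 152047291 to 152051148, and its single promoter fragment, 152047084 to 152048040, holds the annotated start. It was listed with 25 distal regions in replicate 1 and with 29 in replicate 2, and 8 of these were the same. The 8 were 32.0% (14.9 to 53.5) of the first list and 27.6% (12.7 to 47.2) of the second. Both intervals held the shares over all genes, 19.0 and 17.1%. All 25 pairs of replicate 1 lay within 100 kb, and 21 of the 29 of replicate 2 did. The 8 called regions lay 2.99 to 54.4 kb from the promoter, 6 upstream and 2 downstream, and none of them overlapped *Fgf4*. An intron of *Fgf3*, a neighbouring ligand gene in the same orientation, held 1 of them, and the other 7 were between genes, where 36.5% of the called regions of all genes lay.

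Other genes were linked to 5 of the 8 regions of *Fgf4*, and *Fgf3* was among them in all 5. Over all genes, 13.9% of the called distal regions were linked to more than 1 gene. The farthest region, chr7:151992534-151993693, was the only one of the 8 that Hi-C also listed with *Fgf4*, and over all genes Hi-C listed 12.5% of the called pairs. It lay 54.4 kb upstream, beyond the *Fgf3* promoter, and was called for *Ano1*, *Ccnd1*, *Fgf15*, *Fgf3* and *Oraov1* as well. *Ccnd1* encodes cyclin D1, and *Fgf15* encodes a further FGF ligand. The farthest region spans 2 fragments of MboI, the enzyme that cut the chromatin, and the second site shown lies inside the region. Its first 300 bases are shown because it was called with promoters of 6 genes, with the MboI sites in capitals (mm9, plus strand, 151992535 to 151992834):
Fgf4 region: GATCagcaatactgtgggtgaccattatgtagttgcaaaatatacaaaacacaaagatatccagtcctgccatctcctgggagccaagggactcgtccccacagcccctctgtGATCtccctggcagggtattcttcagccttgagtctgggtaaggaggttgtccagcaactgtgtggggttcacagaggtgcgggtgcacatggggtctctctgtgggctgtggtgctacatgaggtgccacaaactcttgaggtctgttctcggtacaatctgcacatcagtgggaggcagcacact

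The known *Fgf4* enhancer lies in the last exon of the gene, downstream of the coding sequence. That part of the exon is covered by more than 1 MboI fragment, and which of them holds the enhancer was not determined here. The region 152049348 to 152050588, within the exon, was listed for *Fgf4* at 2.41 kb in replicate 1 but not in replicate 2, so it was not called. Replicate 1 also listed it for *Fgf3* at 25.9 kb, and Hi-C listed it for *Fgf15* at 33.2 kb. The adjoining region 152050588 to 152051503, which holds the end of the gene, was listed for *Fgf3* at 27.0 kb in replicate 1 and for *Fgf4* in none of the lists.

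*Fgf5*, a marker of the epiblast that follows the naive state, starts at 98683203 on chromosome 5. It was absent from replicate 1 and Hi-C, and replicate 2 listed 5 pairs of its 124-bp promoter fragment. They lay at 63.4, 98.8, 882, 4249 and 32251 kb, so none was nearer than 63.4 kb and 2 were over 1 Mb.

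The receptor gene *Fgfr1* had more called pairs than any other of the 10 genes, and 24 of the listed genes, *Fgfr1* included, had at least as many. It occupies 26624126 to 26686186 on chromosome 8, and the lists named 6 promoter fragments along it. It had 225 pairs in replicate 1 and 592 in replicate 2, and 81 were called, with 54 distal regions. Distance differed between the replicates, with a median of 51.0 kb in replicate 1 and 149 kb in replicate 2. Of the 592 pairs of replicate 2, 100 were over 1 Mb, while 1 of the 225 of replicate 1 was. Pairs over 1 Mb made up 19.4% of the replicate 2 list as a whole and 0.371% of the other. The called pairs had a median distance of 15.9 kb and reached 313 kb.

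The 6 promoter fragments of *Fgfr1* had 1, 8, 8, 9, 24 and 31 called pairs in their order along the gene, so the fragments near its 3′ end had most. The first, at 26623918, had 3 pairs in replicate 1 and 6 in replicate 2. The second, at 26629060, holds the starts of several transcripts and had 32 and 74 pairs. The fragment at 26673034 had 62 and 200 pairs, and the last had 58 and 169. This last fragment was 25 bp long, and the annotated start nearest to it, of a transcript with a retained intron, began 1 base beyond its end. Only 0.301% of the 30574 promoter fragments were 35 bp or shorter. The combined list of the authors named a 522-bp fragment at 26680036 in its place, with the same 31 distal regions. The 25 bases are shown because 31 of the 126 called pairs were assigned to them, with the MboI site in capitals (mm9, plus strand, chr8:26679933-26679957):
Fgfr1 promoter fragment: GATCtcttaagttcaaggccagtct
This exact sequence occurred at 3 places in the chromosomes of mm9, counting both strands. Its part in the number of pairs was not tested.

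The distal regions of *Fgfr1* fell within the gene, downstream of it and far upstream of it. The gene body held 27 of the 54, with 47 pairs, 10 of them in Hi-C. A further 11 regions with 14 pairs lay downstream, most of them in *Letm2*, and 4 of these pairs were in Hi-C. Upstream, within 100 kb of the start of the gene, lay 4 regions with 5 pairs, which spanned 8.25 to 147 kb to the promoter fragments linked to them. None of these pairs was in Hi-C. The remaining 12 regions lay between 26366641 and 26492167, in the interval from *Tacc1* to *Fgfr1*, and their 15 pairs spanned 188 to 313 kb. Between these positions, replicate 1 listed 34 distal regions for *Fgfr1*, replicate 2 listed 89 and Hi-C listed 1.

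**Figure D2:**
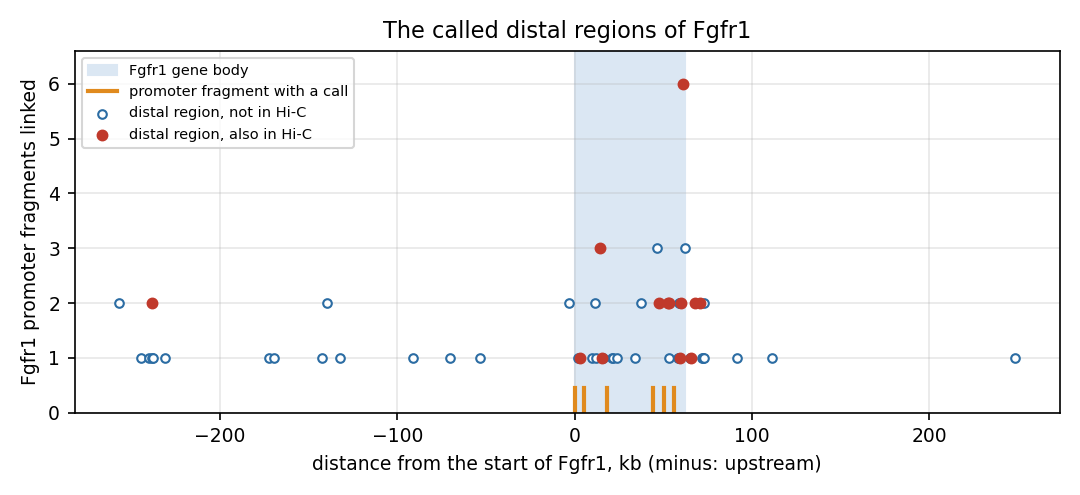
The 54 called distal regions of Fgfr1, by distance from the start of the gene (x axis, kb) and number of Fgfr1 promoter fragments linked to them (y axis); filled points had a pair in Hi-C, the band is the gene body and ticks are the 6 promoter fragments. A group of 12 regions lay over 100 kb upstream of the start, and a single region near the end of the gene was linked to all 6 fragments.

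All 18 called pairs of the 10 genes over 100 kb belonged to *Fgfr1*. They were 14.3% of the called pairs of the 10 genes, and over all genes 6.31% were over 100 kb. Of the 18, 10 were at the 25-bp fragment, whose sequence occurs at 3 places in mm9, and its part was not tested. Between 100 and 500 kb, 21.7% (13.4 to 32.1) of the 83 *Fgfr1* pairs of replicate 1 were shared with replicate 2, and over all genes 7.68% were. For the 222 pairs of replicate 2, the share was 8.11% (4.88 to 12.5), against 4.24%. Of the other genes, none of 41 pairs in replicate 1 and none of 59 in replicate 2 at these distances was shared. Such numbers allow shares of up to 8.60% and 6.06% (exact binomial), and both intervals hold the share over all genes. Hi-C listed 1 of the 18 pairs, which joined the fragment at 26629060 to chr8:26385407-26385820 over 244 kb. This region was also linked to a further *Fgfr1* fragment at 257 kb and to *Letm2* and *Whsc1l1*, the next genes downstream of *Fgfr1*. Its first 300 bases are shown as the far contact that Hi-C listed too, with the MboI site in capitals (mm9, plus strand, 26385408 to 26385707):
Fgfr1 far region: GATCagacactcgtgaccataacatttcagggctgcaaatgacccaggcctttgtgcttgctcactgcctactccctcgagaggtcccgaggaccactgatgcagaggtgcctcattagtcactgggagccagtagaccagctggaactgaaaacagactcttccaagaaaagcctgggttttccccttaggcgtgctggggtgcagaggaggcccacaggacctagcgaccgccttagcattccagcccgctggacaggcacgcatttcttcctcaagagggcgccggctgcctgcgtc

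Of the 54 regions of *Fgfr1*, 34 were linked to 1 of its fragments, 16 to 2, 3 to 3 and 1 to all 6. The region with all 6, chr8:26684198-26685726, overlaps the last exons of the gene and lay 5.02 to 60.7 kb from the fragments. It was also called for *AC160526.2*, a name that the lists give to fragments inside *Fgfr1* and that the annotation used here does not hold, and for *Letm2*, *Ppapdc1b* and *Whsc1l1*. In total, 11 of the 54 regions were shared with other genes, most often with *Whsc1l1* (7 regions) and *Letm2* (6 regions). The region at 26871980, in an intron of *Gm17484* at 193 kb, was linked to 7 other genes, among them *Star*, *Bag4* and *Ash2l*. Of the 81 pairs, 34 passed over a promoter fragment of another name, but 22 of these passed over *AC160526.2* alone, and 12 over a further one. Over all genes, 28487 of the 94868 called pairs passed over a fragment of another name. In 53 of the 81, the nearest captured promoter was that of *Fgfr1*, while over all genes 56.6% of the called pairs had that of their own gene as the nearest. For 15 pairs it was *5430421F17Rik*, a long non-coding RNA gene with a promoter fragment in the interval upstream.

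*Fgfr2*, a receptor that is typical of extraembryonic endoderm in the early embryo, had 133 pairs in the first replicate and 111 in the second, and 12 of them were called. This was 9.02% (4.75 to 15.2) of the pairs of replicate 1, against 36.0% (29.7 to 42.6) for *Fgfr1*. For replicate 2 the shares were closer, 10.8% (5.71 to 18.1) for *Fgfr2* and 13.7% (11.0 to 16.7) for *Fgfr1*, with intervals that overlap. Over all genes, the shares were 19.0% and 17.1%. The called pairs of *Fgfr2* were short, with a median of 6.28 kb and a range of 4.49 to 23.9 kb. They were spread over 6 of its 9 promoter fragments, with 1 to 3 pairs each, and no region was linked to more than 1 fragment. Introns of *Fgfr2* held 9 of the 12 regions, exons near its end held 2, and 1 lay beyond its end. Hi-C listed 6 pairs of *Fgfr2*, of which 1 was called. Pairs of *Fgfr2* over 1 Mb numbered 19 in replicate 2 and 0 in replicate 1.

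Some fragments named for *Fgfr2* stood apart. A fragment at 140273353, far from the other 8, was named for *Fgfr2*, and the nearest annotated *Fgfr2* start was 41450 bp from it. It had 2 pairs in replicate 1, none in replicate 2 and 1 in Hi-C. A fragment of 33 bp at 137339867 had 30 pairs in replicate 1, 29 in replicate 2 and 3 called pairs, and the combined list gave those 3 to the adjoining 1187-bp fragment.

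Of the Sprouty genes, *Spry2* had 13 called pairs, *Spry1* had 2 and *Spry4* had none. *Spry2*, at 106291166 to 106296036 on chromosome 14, was the member with the most unequal lists among those with over 10 called pairs, with 76 pairs in replicate 1 and 19 in replicate 2. The 13 called pairs were 17.1% (9.43 to 27.5) of the first and 68.4% (43.4 to 87.4) of the second. For all listed genes, these shares were 19.0 and 17.1%. The 13 pairs lay 3.05 to 72.4 kb from the promoter, 5 upstream and 8 downstream. Between genes lay 11 of the 13 regions, against 36.5% of the called regions of all genes, and the others overlapped *Spry2* itself. No other gene was linked to any of the 13, while 13.9% of all called regions were linked to more than 1 gene. *Spry2* was the nearest captured promoter to all 13, and over all genes 56.6% of called pairs had their own gene nearest. Hi-C listed 3 pairs of *Spry2*, all 3 were in replicate 1, and the one at 39.3 kb, chr14:106256150-106257663, was called.

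The shortest called region of *Spry2*, 118 bp at 5.22 kb upstream, adjoined another called region at 4.82 kb. It is printed in full as an example of the size at which a contact was placed, with the MboI site in capitals (mm9, plus strand, chr14:106301340-106301457):
Spry2 region: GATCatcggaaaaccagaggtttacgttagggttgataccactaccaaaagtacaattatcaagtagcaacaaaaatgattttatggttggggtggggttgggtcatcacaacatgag

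*Spry1*, at 37538869 to 37543520 on chromosome 3, was listed with 3 regions in each replicate, and 2 of them were the same. In replicate 1, the distances were 2.93, 28.8 and 47.3 kb, and in replicate 2 they were 2.93, 28.8 and 670 kb. The called region at 2.93 kb lay in the coding exon of *Spry1*. The one at 28.8 kb lay between genes and was also called for *AC110508.1*. Hi-C listed a single pair, at 23.9 kb, that neither replicate held.

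*Spry4* was listed once, in replicate 2 at 35.4 kb. Its promoter fragment of 704 bp was also named for *Arhgap26*, a gene on the opposite strand that begins within the same fragment, and under that name it had 79 pairs in replicate 1 and 96 in replicate 2. Of those, 27 were called, at 2.39 to 35.4 kb with a median of 10.5 kb, and Hi-C held 2 of the 27. On the side of *Spry4* lay 18 of the 27 regions, 13 of them within *Spry4*, and 9 lay on the side of *Arhgap26*. The single pair named for *Spry4* was listed for *Arhgap26* in both replicates too. Only 0.455% of the promoter fragments carried more than 1 gene name. The fragment at the *Spry4* start therefore had calls in these lists, under the other name.

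**Figure D3:**
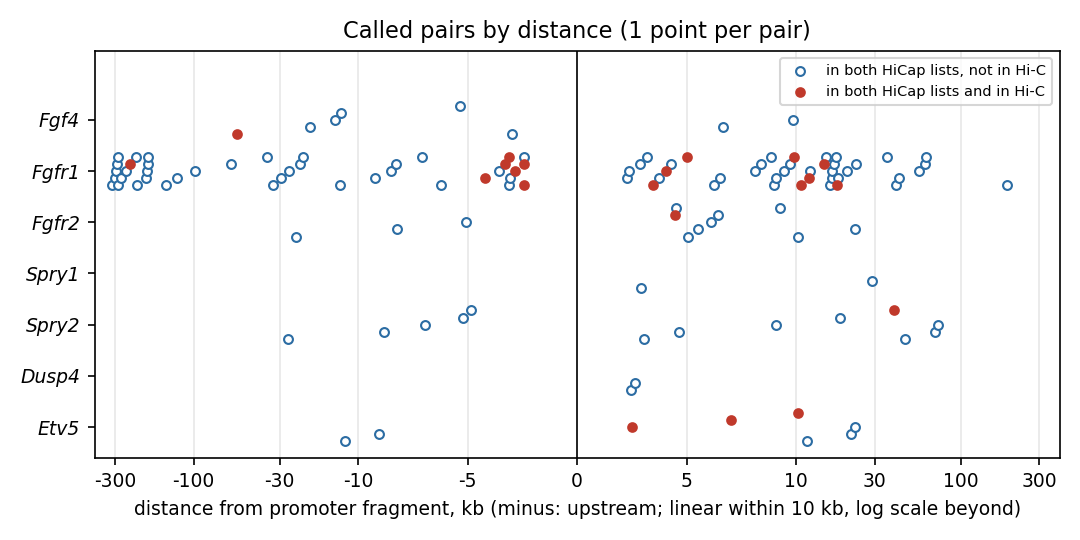
Called pairs of the 7 genes with calls, by signed distance from the promoter fragment (x axis, kb, linear within 10 kb and log scale beyond, upstream of transcription to the left); filled points were also in Hi-C. All 18 pairs over 100 kb belonged to Fgfr1, and the farthest pair of the other genes was at 72.4 kb, for Spry2.

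Among the phosphatase genes, *Dusp4* had 2 called pairs and *Dusp6* had none, and the median listed gene had 1. *Dusp4*, whose product acts on nuclear MAP kinases, had 4 pairs in replicate 1 and 25 in replicate 2, with medians of 2.55 and 412 kb. The 2 called pairs, at 2.44 and 2.66 kb, joined its promoter to adjoining fragments in an intron of the gene. In replicate 2 the next fragment, at 3.02 kb, was listed as well, and in replicate 1 the previous one, at 2.18 kb. Both replicates and Hi-C named a fragment whose start is 180 bp from the annotated start, and the combined list gave the calls to the adjoining fragment that holds it. The 2 regions are shown because they are all that *Dusp4* had in both replicates, with MboI sites in capitals (mm9, plus strand, chr8:35873141-35873329 and chr8:35873330-35873574):
Dusp4 region at 2.44 kb: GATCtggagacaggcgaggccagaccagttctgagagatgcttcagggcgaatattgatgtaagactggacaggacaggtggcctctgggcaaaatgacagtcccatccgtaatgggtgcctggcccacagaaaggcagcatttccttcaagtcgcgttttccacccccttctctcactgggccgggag
Dusp4 region at 2.66 kb: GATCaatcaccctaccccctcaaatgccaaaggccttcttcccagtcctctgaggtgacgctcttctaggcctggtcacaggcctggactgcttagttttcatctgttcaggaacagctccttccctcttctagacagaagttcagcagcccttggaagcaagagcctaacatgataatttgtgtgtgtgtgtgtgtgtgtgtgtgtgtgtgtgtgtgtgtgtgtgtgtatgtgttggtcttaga

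*Dusp6*, which encodes a cytoplasmic phosphatase that is selective for ERK, had 6 pairs in replicate 1 and 7 in replicate 2 and none in both. In replicate 1, 5 of the 6 lay upstream at 4.02 to 12.0 kb, and the other was 209 kb downstream. In replicate 2, the nearest were at 2.57 kb upstream and 4.33 kb downstream, and the farthest was at 5135 kb. A region of replicate 1 lay within 1 kb of one of replicate 2 in 1 case. Hi-C listed 3 pairs at 13.7, 19.7 and 20.9 kb, and none of them was in either replicate. With 6 and 7 pairs, a share of 0 allowed up to 45.9% and 41.0% (exact binomial). Both intervals held the shares over all genes, 19.0 and 17.1%, and 60.7% of the listed genes had a called pair.

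*Etv5*, an ETS transcription factor whose gene is a target of ERK signalling, had similar numbers in the replicates, 46 pairs and 43. The 8 called pairs were 17.4% (7.82 to 31.4) of the first and 18.6% (8.39 to 33.4) of the second, close to the background of each. They lay 2.51 to 22.8 kb from the promoter on chromosome 16, at 22439174 to 22439648. Downstream, 6 of the regions overlapped *Etv5*, 5 of them in introns, and upstream 2 lay between genes at 9.05 and 12.1 kb. Hi-C listed 5 pairs of *Etv5*, all 5 were in at least 1 HiCap replicate and 3 were called. This was the highest share in Hi-C among the genes with over 2 called pairs, but it rests on 8 called pairs. Over all genes, Hi-C listed 12.5% of the called pairs. The intronic region 22428178 to 22430006, at 10.3 kb, was 1 of the 3 and was also linked to genes with clone-based names. The upstream region of 153 bp at 12.1 kb is printed as the farthest upstream call of *Etv5*, with the MboI site in capitals (mm9, plus strand, chr16:22451394-22451546):
Etv5 region: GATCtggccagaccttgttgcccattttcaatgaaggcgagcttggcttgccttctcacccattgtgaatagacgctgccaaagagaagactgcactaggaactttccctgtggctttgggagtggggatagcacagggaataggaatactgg

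Across the 10 genes, pairs close to the promoter were shared between replicates most often, as over all genes. Of the pairs of replicate 1 at 5 to 10 kb, 45.1% (33.2 to 57.3) were also in replicate 2, against 27.1% over all genes. Without *Fgfr1*, 30.8% (18.7 to 45.1) were, an interval that holds the background, and at 1 to 5 kb the share was 42.4% (30.3 to 55.2) with *Fgfr1* and 22.2% (11.2 to 37.1) without it, against 31.6%. From 25 to 100 kb, the share was 14.1% (8.69 to 21.1), against 13.1%. For replicate 2, the shares were 48.3% (28 of 58 pairs) at 1 to 5 kb, 53.3% (40.0 to 66.3) at 5 to 10 kb and 11.0% (6.78 to 16.7) at 25 to 100 kb, against 57.9, 50.0 and 15.5%. Without *Fgfr1*, they were 38.5% (20.2 to 59.4), 59.3% (38.8 to 77.6) and 14.6% (6.07 to 27.8). With all genes weighted to the distances of the 10 genes, the background was 17.6% for replicate 1 and 16.3% for replicate 2. None of the 130 pairs of replicate 2 over 1 Mb was called (up to 2.80%, exact binomial), and over all genes 0.0613% of 107703 were. Pairs over 1 Mb were 15.6% of the replicate 2 pairs of the 10 genes, against 19.4% over all genes. In replicate 1, 1 of 518 pairs was over 1 Mb, or 0.193%, against 0.371%.

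**Figure D4:**
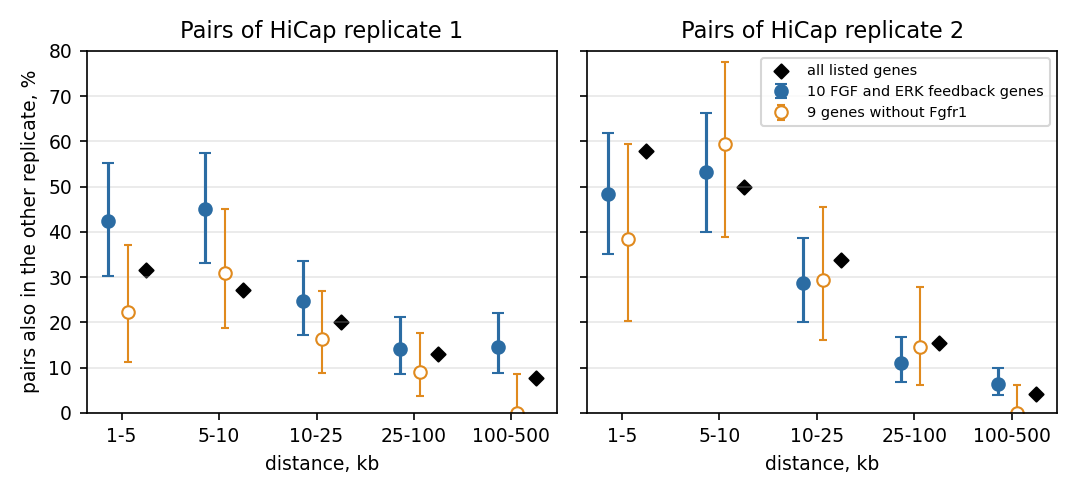
Percentage of the pairs in each HiCap list found again in the second list (y axis) by distance class (x axis, kb), for the 10 genes (filled circles), the other 9 without Fgfr1 (open circles, both with exact binomial 95% intervals) and all listed genes (diamonds). Beyond 25 kb the shares were under 16%, and for replicate 1 at 1 to 5 kb the share of the 10 genes was 42.4% with Fgfr1 and 22.2% without it.

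The Hi-C libraries were not used for the calls. Hi-C listed 21 of the 126 called pairs of the 10 genes, or 16.7% (10.6 to 24.3), against 12.5% over all genes and 11.9% at the distances of the 10 genes. The interval held both backgrounds. Without *Fgfr1* it was 6 of 45, or 13.3% (5.05 to 26.8). In the other direction, Hi-C listed 71 pairs for 8 of the 10 genes, none over 244 kb. Of these, 33 were in replicate 1, or 46.5% (34.5 to 58.7), against 32.9% over all genes, and 31 were in replicate 2, or 43.7% (31.9 to 56.0), against 22.3%. Both HiCap replicates held 21 of the 71, or 29.6% (19.3 to 41.6), against 15.8%. *Fgfr1* gave 48 of the 71, and 20 of its 48 were in neither replicate. It also gave 19 of the 33 in replicate 1, 24 of the 31 in replicate 2 and 15 of the 21 in both. The backgrounds for these shares were not matched for distance, so the differences may not be a trait of the 10 genes.

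The called distal regions of the 10 genes were also placed against the annotation. The nearest captured promoter was that of the same gene in 94 of 126 pairs, or 74.6% (66.1 to 81.9), against 56.6%. In *Fgfr2*, *Spry1*, *Spry2*, *Dusp4* and *Etv5* this held for all 37 pairs, in *Fgf4* for 4 of 8 and in *Fgfr1* for 53 of 81. The background was not matched for the number of promoter fragments, which was 6 for *Fgfr1*, 9 for *Fgfr2* and 1 for each other gene with calls. Of the 99 regions, 49 overlapped the gene they were linked to, 27 of them in *Fgfr1* and 11 in *Fgfr2*, while *Fgf4* had 0 of 8. The share over all genes was not determined here. Exons held 21.2% of the regions, introns 40.4% and the space between genes 38.4%, against 24.4, 39.1 and 36.5% over all genes. Their median length was 597 bp, with 117 and 3485 bp as the extremes, and 89 of the 99 were a single MboI fragment. The median G+C content was 46.9%, and that of all called distal regions was 46.5%. Another gene was linked to 18 of the 99, or 18.2% (11.1 to 27.2), against 13.9%.

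The sequence at the centre of each called region was searched for short motifs on both strands, in a window of 300 bases. Where a region was shorter than 300 bases, the window reached into the sequence beside it. The ETS motif CCGGAAG, to which factors such as *Etv5* can bind, was present in 5 of the 99 windows, or 5.05% (1.66 to 11.4), and in 1.39% of the windows of all 71923 called distal regions. These 5 were 3 regions of *Fgfr1*, 1 of *Fgfr2* and 1 of *Spry1*. The octamer motif ATTTGCAT of POU factors was found in 1 of the 99, against 1.41%. The CTCF core AGGGGGCGC and the SOX motif CCTTTGTTC were in 0 of the 99, which allows a share of up to 3.66% (exact binomial), against 0.178 and 0.496%. The motifs were chosen after the regions were known. A match shows only that the letters are present. The windows with the ETS motif in *Fgfr1*, *Fgfr2* and *Spry1* are shown for 1 region of each gene, with the motif in capitals (mm9, plus strand, chr8:26639263-26639562 in an intron, chr7:137367017-137367316 in an intron and chr3:37541662-37541961 in the coding exon):
Fgfr1 intron region: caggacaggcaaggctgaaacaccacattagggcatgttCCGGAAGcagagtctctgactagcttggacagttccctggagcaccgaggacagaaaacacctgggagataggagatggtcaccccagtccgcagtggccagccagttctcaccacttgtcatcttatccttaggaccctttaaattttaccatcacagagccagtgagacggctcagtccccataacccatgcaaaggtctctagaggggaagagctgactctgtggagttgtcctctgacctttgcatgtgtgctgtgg
Fgfr2 intron region: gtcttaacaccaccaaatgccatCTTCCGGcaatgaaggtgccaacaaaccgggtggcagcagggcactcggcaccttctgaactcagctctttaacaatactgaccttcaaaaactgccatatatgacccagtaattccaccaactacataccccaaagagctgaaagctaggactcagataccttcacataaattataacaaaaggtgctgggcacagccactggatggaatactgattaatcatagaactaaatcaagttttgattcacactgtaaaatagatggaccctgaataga
Spry1 exon region: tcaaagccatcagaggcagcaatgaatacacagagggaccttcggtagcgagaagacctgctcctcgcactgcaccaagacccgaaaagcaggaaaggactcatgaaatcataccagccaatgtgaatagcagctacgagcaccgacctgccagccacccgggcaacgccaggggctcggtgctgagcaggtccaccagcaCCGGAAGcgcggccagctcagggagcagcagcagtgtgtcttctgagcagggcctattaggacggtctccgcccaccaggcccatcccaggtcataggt

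The region of *Fgfr1* shown here was linked to the fragment at 26641798 over 3.12 kb, and Hi-C listed it too. That of *Fgfr2* lay at 5.04 kb and that of *Spry1* at 2.93 kb, and neither was in Hi-C.

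Other genes of the pathway were taken from a list of 67, of which 65 were listed in a HiCap replicate. A called pair was found for 48 of these, or 73.8% (61.5 to 84.0), against 60.7% of all listed genes. *Spry3* and *Dusp10* were not listed. Among the other ligands, 14 of 20 had a call, with *Fgf3* (32 pairs), *Fgf1* (20 pairs) and *Fgf23* (11 pairs) at the top. Of the receptors and co-receptors, 3 of 5 had one, *Klb* with 2 pairs and *Fgfr4* and *Fgfrl1* with 1 each. The adaptors and kinases of the cascade had calls for 17 of 19, or 89.5% (66.9 to 98.7), an interval above the background. *Araf* (19 pairs), *Frs3* (17 pairs) and *Ksr1* (17 pairs) were highest there. Of the other feedback inhibitors, 5 of the 11 listed had a call, or 45.5% (16.7 to 76.6), an interval that holds the background, and *Dusp1* (17 pairs), *Nf1* (14 pairs) and *Spred2* (13 pairs) led them. Of the target transcription factors, 9 of 10 had a call, with *Fosl1* (35 pairs) and *Egr1* (27 pairs) highest, followed by *Fos* and *Ier2* with 24 pairs each. The intervals for ligands (45.7 to 88.1), receptors and co-receptors (14.7 to 94.7) and target transcription factors (55.5 to 99.7) held the background too. No gene of this list had as many called pairs as *Fgfr1*.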

How the data were processed

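The data are HiCap lists of 2 replicates and a Hi-C list of 2 pooled replicates, all of R1 mESCs. The authors digested fixed chromatin with MboI, aligned both read ends to mm9 separately with Bowtie, discarded duplicates and pairs within 1 kb, and required support by 3 or more read pairs per replicate for HiCap. The minimum for Hi-C is not given in the sources used here. The deposited values are positions on mm9 without read numbers or normalization. Promoter lines stand 2 bases above the MboI site and distal lines at it, which was checked in the genome sequence.

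Each promoter fragment with its distal region was counted once, and distance was taken between midpoints. Shares carry exact binomial (Clopper-Pearson) 95% intervals, counting error only. No condition was compared, so no test across samples was run. Genes, exons and start sites came from the GENCODE vM1 annotation of mm9 without pseudogenes. The members and gene lists were chosen with earlier results of these data known. Named genes are the 10, genes that share, hold or lie nearest to a called region of theirs, and the 3 genes of each pathway role with the most called regions, ties included. Alternatives were single replicates, the combined list, regions within 1 kb, pairs over 15 kb or up to 1 Mb, merged fragments, genes instead of fragments and distance between fragment ends. Counting was checked on simulated lists. Python 3.11.15, pandas 2.3.3 and scipy 1.17.1 were used.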

Additional observations from a re-analysis of the deposited data

How the results depend on the processing

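The number of genes with a called pair, 7, moved by less than 1.5 times under every alternative, from 6 with pairs over 15 kb alone to 10 with replicate 2 alone. Single replicates gave 518 to 835 pairs in place of 126, a median of 15.5 to 22 distal regions per gene in place of 5, a median distance of 26.4 to 119 kb in place of 11.2 kb and 3.71 to 6.37% of pairs in Hi-C in place of 16.7%. With distal regions of a gene counted as shared within 1 kb, 396 pairs were called, the median gene had 12.5 regions, 76.4% of replicate 1 and 52.9% of replicate 2 were shared, and 52.4% of the called pairs were in Hi-C. Over 15 kb alone, these values were 55 pairs, 1.5 regions, 16.6, 8.09 and 7.27%. The rule of 1 kb did not ask for the same promoter fragment, and *Fgfr1* gave 211 of its 396 pairs. Shares over all genes under that rule were not determined here. Pairs up to 1 Mb gave a share of 17.9% for replicate 2. With any promoter fragment of the gene, the shares of the replicates were 42.3 and 27.8%. In the combined list of the authors, 10.3% of the pairs were in Hi-C with the same fragment, since 36 of the 126 pairs carry another promoter fragment there. Without *Fgfr1*, a choice made after seeing the data, 45 pairs were called and the shares were 15.4 and 18.5%. Also chosen after seeing the data, the pairs of the *Spry4* fragment under any name gave 153 called pairs in 8 genes. The other alternatives kept these values within 1.5 times for counts or within the main interval or spread. No paired analysis was possible because no test was run, Hi-C replicates are pooled and the replicate numbers do not tie samples to each other. The lists hold no read numbers, so depth sets a limit that could not be measured here.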
